A study of Mus musculus with 26 samples.

Results

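The non-parenchymal liver cells that carry no lineage label were compared between day 14 and day 7 of a DDC diet. These YFP-negative cells came from Foxl1-CRE; RosaYFP mice, 6 to 10 weeks old, fed the diet for 7 or 14 days. Both groups were sorted from liver cells negative for CD45, so both share the genotype, the diet and the removal of CD45-positive cells. In these mice the Foxl1 promoter drives the recombinase and YFP marks the cells in which it has acted, so the YFP-negative fraction holds every other CD45-negative cell type that the gate let through. The comparison rests on 6 of the 20 arrays used from 26 samples: 3 arrays at day 7, of 4 labelled samples, and 3 at day 14. Members were chosen by their titles and not by any measured value. YFP-positive cells of the same days, from 3 and 2 arrays, are given beside them. The labels do not say whether a sample is 1 animal or a pool, so the p-values measure the spread between these samples, which may be technical.

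DDC is a porphyrinogenic compound: it blocks the last step of heme synthesis, and porphyrin plugs then obstruct the small bile ducts. The liver answers with growth of bile duct-like cells, with activation of stellate cells, which store vitamin A at rest and make collagen when activated, and with inflow of leukocytes. The non-parenchymal fraction normally holds sinusoidal endothelial cells, Kupffer cells (the resident macrophages), stellate cells, lymphocytes and bile duct cells, while hepatocytes are the parenchyma.

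Each level below is the log2 processed signal of a gene's brightest probe minus the 75th percentile of its array, so 0 is the level of a fairly bright probe and differences are in log2 units. Where 3 levels follow each other they are in the order of slides 4, 6 and 7, which each held 1 day 7 and 1 day 14 array, so that 3 differences within a slide could be formed. A value after ± is the standard error of limma's fit. All day 7 arrays lay at array position 2 of their slide and all day 14 arrays at position 3, so position and day cannot be told apart. Between 82.3 and 88.3% of spots on the 6 arrays exceeded background clearly, and 0 spots were saturated. The day 7 arrays correlated with each other less (Pearson's r 0.872 to 0.92 across genes) than the day 14 arrays did (0.926 to 0.951).

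None of 26665 genes passed limma's moderated test at a Benjamini-Hochberg adjusted p under 0.05 (percent called 0, smallest adjusted p 0.265). At an unadjusted p under 0.05 the same fit held 742 genes higher (2.78%) and 1288 lower (4.83%) at day 14. The 3 day 14 arrays lay wholly above the 3 day 7 arrays for 1687 genes (6.33%) and wholly below for 1866 (7%). The median difference of all genes was -0.13, with 42.7% of genes above 0 and 57.3% below. The scaling sets this balance: the median was 0.040 under quantile normalization and 0.063 under median centring, where the unadjusted counts were 933 higher and 854 lower, and 1154 higher and 933 lower. Leaving out the day 7 array of slide 4 brought the count past the threshold to 49, leaving out that of slide 7 to 2, leaving out the day 14 array of slide 6 to 1, and leaving out the day 7 arrays of slides 6 and 7 together to 8. Every difference that follows is therefore a measured value that did not pass this test, and the gene groups are described by counts and medians to be read against these shares.

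Leukocyte genes differed widely between the arrays, although the cells had been gated as CD45-negative. All 20 macrophage genes, all 19 lymphoid genes and all 12 measured neutrophil genes had a difference below 0, with list medians of -2.62, -2.96 and -2.30. Ptprc, which encodes CD45 itself, had levels of -0.78, 4.38 and 4.38 at day 7 and -0.90, -1.73 and 0.76 at day 14. The 2 day 7 arrays of slides 6 and 7 were thus far above the other 4, and the day 7 array of slide 4 lay among the day 14 arrays. The macrophage list repeated this order, with array means of -1.14, 3.50 and 3.46 at day 7 and -0.45, -1.86 and 0.73 at day 14. The neutrophil list had means of -3.39, 2.13 and 1.97 at day 7 and -3.20, -3.65 and -1.33 at day 14. Within slide 4, where leukocyte genes were low on both days, the medians of the macrophage, lymphoid and neutrophil lists were 0.81, -0.07 and -0.07. On slides 6 and 7 the macrophage median was -5.44 and -2.83. Without the day 7 arrays of slides 6 and 7, which leaves the slide 4 array as the day 7 group, the medians were 0.37 for macrophage, 0.67 for neutrophil and -0.70 for lymphoid genes.

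No macrophage gene had groups that did not overlap, against 7% of all genes on the lower side. Adgre1, a macrophage surface receptor, had levels of -1.36, 4.34 and 4.11 at day 7 and 0.0058, -1.84 and 1.14 at day 14. S100a8, a calcium-binding protein abundant in neutrophils, had -0.64, 4.34 and 3.75 at day 7 and 0.69, 0.011 and 0.75 at day 14. In the lymphoid list 6 of 19 genes had all day 14 arrays below all day 7 arrays. Cd79a, a chain of the B cell receptor complex (probe at chr7:25684353-25684610 of mm9), had levels of -4.83, -3.20 and -3.67 at day 7 and -6.03, -7.78 and -6.43 at day 14, a difference of -2.84 ± 0.62 with an adjusted p of 0.523 in limma. Cd3g, a chain of the T cell receptor complex, had levels of -4.66, -0.27 and -0.62 at day 7 and -5.79, -6.61 and -5.13 at day 14 and a difference of -3.99 ± 1.19 (limma adjusted p 0.588). Cd79a and Cd3g were named for their lack of overlap, which fixes a lower day 14 level on every slide. Their within-slide differences were -1.19, -4.58 and -2.76 for Cd79a and -1.13, -6.34 and -4.51 for Cd3g. Prf1, the pore-forming protein of killer lymphocytes and named by the same rule, differed by -1.11, -3.52 and -0.79 on the 3 slides. It was well above background on 2 of 3 day 14 arrays. Within slide 4, 8 of the 19 lymphoid genes were higher at day 14 and 11 were lower, with differences from -1.36 to 2.91. These RNA mixtures do not tell fewer cells of a type from less RNA per cell. The part that the leukocyte genes of these 2 arrays have in the differences of the other groups was not tested, so the list medians without these 2 arrays are given with the lists; that of all genes was -0.15.

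**Figure D1:**
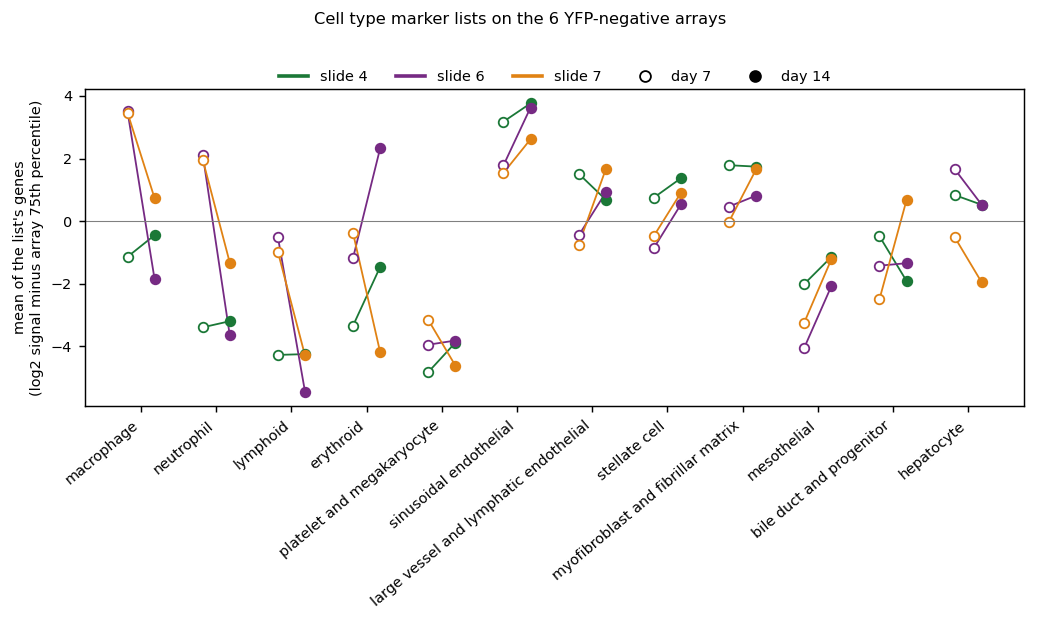
Mean log2 level of each cell type's marker genes (y axis, log2 signal minus the array's 75th percentile) on the 6 YFP-negative arrays, with open circles for day 7, filled circles for day 14, and a line joining the 2 arrays of a slide (colour). Macrophage, neutrophil and lymphoid means are high on the day 7 arrays of slides 6 and 7 and not on that of slide 4, whereas the sinusoidal endothelial, stellate and mesothelial means are higher at day 14 on every slide. Across slides, the sinusoidal endothelial, stellate and mesothelial ranges overlap between the days.

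The mean of the hepatic stellate cell genes was higher at day 14 on every slide. Across slides the days overlapped: the day 7 mean of slide 4, 0.75, exceeded the day 14 mean of slide 6, 0.54. Of 20 measured genes 19 had a difference above 0, and 18 of 20 were higher within all 3 slides, a pattern that 15.5% of all genes had. The list median was 1.04, and it was 0.58 within slide 4, 1.31 within slide 6 and 1.12 within slide 7, while without the day 7 arrays of slides 6 and 7 it was 0.22. Groups did not overlap for 5 of 20 genes, against 6.33% of all genes. Angptl6, a secreted angiopoietin-like protein, had levels of 0.69, -0.50 and 0.61 at day 7 and 1.83, 0.75 and 1.76 at day 14, a difference of 1.18 ± 0.66 (limma adjusted p 0.722) that was nearly the same on each slide (1.14, 1.25 and 1.15). Lrat, which forms the retinyl esters that stellate cells store, had levels of 1.44, 0.56 and 0.93 at day 7 and 2.59, 1.57 and 1.62 at day 14. Ecm1, an extracellular matrix protein, had levels of 2.62, 1.74 and 2.29 at day 7 and 3.78, 3.03 and 3.22 at day 14. Colec11, a secreted collectin, had 3.64, 1.90 and 2.53 at day 7 and 4.53, 3.65 and 4.23 at day 14. All 4 genes were lower on each day 7 array than on any day 14 array, and their limma adjusted p lay between 0.722 and 0.869. Angptl6, Ecm1 and Colec11 were named for this lack of overlap, which fixes their sign on every slide, and Lrat as the first gene of the list. Cygb, a globin of stellate cells, was the fifth gene without overlap, with a difference of 2.13 ± 1.32. Gfap, at -5.29, -5.40 and -4.04 at day 7 and -5.05, -5.66 and -4.49 at day 14, was the gene of the list with a difference below 0, and its sign turned under quantile normalization (0.19) and median centring (0.037).

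Collagen and other matrix genes of myofibroblasts had a median of 0.89, with 17 of 21 differences above 0 and 4 below. The within-slide medians were 0.10, 0.41 and 1.53, so the slides did not share 1 size, and leaving out the day 7 arrays of slides 6 and 7 turned the median to -0.26. For 3 of the 21 genes day 14 arrays lay wholly above day 7 and for 1 wholly below, beside 6.33% and 7% of all genes. Timp1, an inhibitor of matrix metalloproteinases, had levels of -1.29, -3.09 and -2.33 at day 7 and -0.93, -1.08 and -0.92 at day 14 and a difference of 1.26 ± 0.52 (limma adjusted p 0.631). Dcn, the small proteoglycan decorin, had 3.58, 2.10 and 2.54 at day 7 and 4.24, 3.72 and 4.04 at day 14. Sparc, a collagen-binding glycoprotein, had a difference of 0.38 ± 0.30. Thy1, a surface protein of portal fibroblasts and of T cells, lay the other way, with levels of 0.15, 1.50 and 0.41 at day 7 and 0.067, -0.44 and -0.79 at day 14. Col1a1, a chain of type I collagen, had levels of 2.66, 1.25 and -0.18 at day 7 and 2.76, 1.45 and 2.41 at day 14: its groups overlapped, and its within-slide differences were 0.10, 0.20 and 2.59. Loxl1, a collagen and elastin cross-linking enzyme, had the largest difference of the list, 2.22 ± 0.80 (limma adjusted p 0.604), with 0.79, 1.66 and 4.22 on the 3 slides and 0.16 without the day 7 arrays of slides 6 and 7.

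All 20 genes of sinusoidal endothelial cells had a difference above 0 (median 1.10), and 16 of 20 were higher within all 3 slides, against 15.5% of all genes. The within-slide medians were 0.70, 1.87 and 1.12, and without the day 7 arrays of slides 6 and 7 the median was 0.13. Across slides the list means overlapped, as the day 7 mean of slide 4, 3.18, exceeded the day 14 mean of slide 7, 2.62. Of the 20 genes 1 lay wholly above at day 14, beside 6.33% of all genes. This gene, Eng, the TGF-beta co-receptor endoglin, was at 0.26, -1.17 and -1.80 at day 7 and 1.28, 1.51 and 0.69 at day 14, a difference of 2.06 ± 0.85 (limma adjusted p 0.624). Tie1, an endothelial receptor kinase, had levels of 2.21, 0.35 and -0.20 at day 7 and 2.88, 2.81 and 2.01 at day 14. Stab2, the hyaluronan scavenger receptor of the sinusoid, had 3.69, 2.17 and 1.95 at day 7 and 4.13, 4.08 and 2.31 at day 14, and its sign turned to -0.19 when the day 7 arrays of slides 6 and 7 were left out. For large vessel and lymphatic endothelium 14 of 15 genes were above 0 (median 1.03), but the within-slide medians ran from -0.54 on slide 4 to 1.50 and 2.27 on the other two, and without those 2 day 7 arrays the median was -0.37. Vwf, the clotting factor of large-vessel endothelium, differed by -1.64, 0.067 and 3.48 on the 3 slides.

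Mesothelial genes, which mark the cell layer covering the liver, had the highest median of the 29 lists, 1.65, over 6 genes that were all above 0; without the day 7 arrays of slides 6 and 7 it was 0.77. Msln, mesothelin, had levels of 0.18, -1.74 and -0.38 at day 7 and 1.42, 0.26 and 1.73 at day 14. Lrrn4, a leucine-rich repeat protein well above background on 2 of 3 day 7 arrays, had -4.21, -8.35 and -3.65 at day 7 and -2.97, -3.18 and -2.57 at day 14. The 3 day 14 arrays lay above the 3 day 7 arrays for both, which were 2 of the 6 genes, beside 6.33% of all genes. Bile duct and progenitor genes had a median of 0.57, and the slides disagreed, at -1.20, -0.07 and 3.29 (-0.36 without those 2 arrays). Of the 20 genes 0 were free of overlap, beside 6.33% of all genes wholly above and 7% wholly below at day 14. Krt19, a keratin of bile duct cells, had levels of -0.45, -1.99 and -3.27 at day 7 and -1.64, -0.83 and 0.89 at day 14, which places the highest and the lowest array on slide 7. Red cell genes were above 0 for 7 of 11 (median 0.65, and 2.16 without those 2 arrays), but the slides disagreed. On slides 4, 6 and 7, 9, 9 and 1 of the 11 genes were higher at day 14, with medians of 2.11, 2.87 and -3.80. Klf1, an erythroid transcription factor well above background on 1 of 3 day 7 arrays, was at -7.86, -8.79 and -7.84 at day 7 and -7.72, -0.082 and -7.35 at day 14. Alas2, the erythroid enzyme that begins heme synthesis, was at -3.19, 3.82 and 4.87 at day 7 and 3.88, 4.57 and -1.10 at day 14. Platelet genes were above 0 for 2 of 7 (median -0.16, and 0.35 without those 2 arrays). Itga2b, a chain of the platelet fibrinogen receptor, was free of overlap at -2.63, -4.28 and -2.94 at day 7 and -1.39, -1.10 and -1.43 at day 14 (difference 1.98 ± 0.62).

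Hepatocyte genes lay lower at day 14. Of 19 measured genes 17 had a difference below 0 (median -0.78) and 9 were lower within all 3 slides, against 24.3% of all genes; the medians were -0.28, -1.01 and -1.07 on slides 4, 6 and 7, and -0.83 without the day 7 arrays of slides 6 and 7. Alb, albumin, had levels of 4.96, 5.64 and 4.27 at day 7 and 4.62, 4.61 and 3.29 at day 14, and so was among the bright genes on all 6 arrays of this non-parenchymal sort. Cyp3a11, a drug-metabolising cytochrome P450, had levels of 2.30, 2.72 and -0.63 at day 7 and -0.36, -0.67 and -3.64 at day 14 and a difference of -3.02 ± 1.35 (limma adjusted p 0.645), and Ttr, the thyroid hormone carrier transthyretin, had a difference of -2.46 ± 1.25. The groups overlapped for all 19 hepatocyte genes, while 6.33% of all genes lay wholly above and 7% wholly below at day 14.

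**Figure D2:**
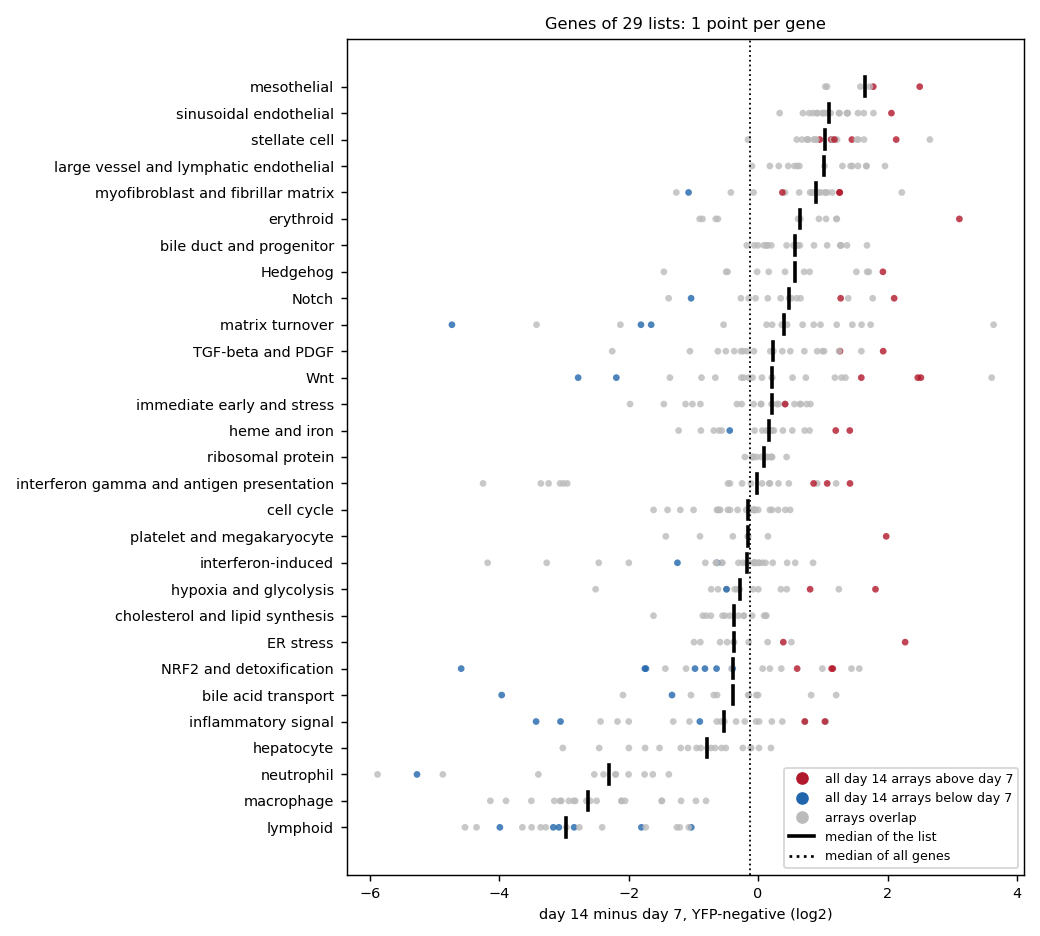
Difference between day 14 and day 7 in YFP-negative cells (x axis, log2) for every measured gene of the 29 lists (rows), with red and blue for genes whose 3 day 14 arrays lie wholly above or below the 3 day 7 arrays, a black bar at the list median and a dotted line at the median of all genes, -0.13. The medians run from -2.96 for lymphoid genes to 1.65 for mesothelial genes, and the detoxification row holds both colours.

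Genes of detoxification and of the NRF2 pathway had a median of -0.39, beside -0.13 for all genes, but 10 of the 19 had groups that did not overlap, 7 of them lower and 3 higher at day 14, against 7% and 6.33% of all genes. NRF2 is a transcription factor that is released from its inhibitor by electrophiles and oxidants and binds the antioxidant response element near genes for glutathione synthesis and conjugation. Metallothioneins are small metal-binding proteins whose genes respond to the metal-sensing factor MTF1 through metal response elements. Promoter sequence is shown for Ugdh, from the lower side, and for the metallothioneins, from the higher side, as examples of both elements. These 3 genes were picked because they hold matches, and the elements do not sort the list by direction. Each is the 250 bases before the RefSeq transcription start in GRCm38.p6, read on the gene's strand, with the motif matches in capitals.

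Ugdh, chr5:65435843-65436092, minus strand: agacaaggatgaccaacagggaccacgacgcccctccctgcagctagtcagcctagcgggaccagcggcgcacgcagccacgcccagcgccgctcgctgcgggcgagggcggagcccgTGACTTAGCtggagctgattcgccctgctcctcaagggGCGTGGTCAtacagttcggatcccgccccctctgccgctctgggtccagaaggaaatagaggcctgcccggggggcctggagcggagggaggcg

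Mt2, chr8:94172368-94172617, plus strand: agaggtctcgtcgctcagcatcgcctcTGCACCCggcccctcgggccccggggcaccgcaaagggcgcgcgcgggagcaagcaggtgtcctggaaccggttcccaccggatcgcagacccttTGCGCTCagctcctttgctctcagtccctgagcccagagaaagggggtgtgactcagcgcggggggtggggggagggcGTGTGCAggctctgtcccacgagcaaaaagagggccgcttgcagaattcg

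Mt1, chr8:94178839-94179088, plus strand: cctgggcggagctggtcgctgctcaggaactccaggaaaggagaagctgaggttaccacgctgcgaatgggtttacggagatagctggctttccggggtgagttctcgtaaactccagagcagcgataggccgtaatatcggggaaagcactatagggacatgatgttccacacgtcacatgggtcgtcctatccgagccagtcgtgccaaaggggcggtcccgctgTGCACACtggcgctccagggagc

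The capitals in Ugdh mark TGACNNNGC, the core of the antioxidant response element, and those in Mt2 and Mt1 mark TGCACNC or TGCGCNC, the core of the metal response element, both searched on both strands. Ugdh held 2 matches, a number reached by 0.639% of 32851 promoter windows of the same 250 bases, while 10.2% held at least 1. Mt2 held 3 matches, reached by 0.77% of windows, and Mt1 held 1, while 21.4% of windows held at least 1. Of the 16 genes of the list with a window, 5 held the antioxidant response element and 6 the metal response element. The higher-side genes Mt2 (1 match, left in lower case above) and Abcc4 also held the antioxidant element, Gsta1, Gstm3, Gstm1, Srxn1 and Slc7a11 on the lower side held 0, and Gstm1 and Srxn1 held the metal element. The matches do not overlap each other. They describe the letters of these windows and are no evidence of binding.

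Of the 7 genes on the lower side 3 were glutathione S-transferases, which couple glutathione to electrophiles and are abundant in hepatocytes. Gsta1 (probe at chr9:78083844-78087325 of mm9) had levels of 4.92, 4.87 and 4.44 at day 7 and 4.04, 3.50 and 1.45 at day 14, a difference of -1.75 ± 0.78 (limma adjusted p 0.643). Gstm3 had levels of 4.79, 4.73 and 4.49 at day 7 and 3.85, 3.53 and 1.42 at day 14 and a difference of -1.73 ± 0.76 (limma adjusted p 0.637). For both genes the 3 day 7 arrays lay close together and the day 14 array of slide 7 was the lowest of the 6. The hepatocyte list, with 17 of 19 genes below 0, had its lowest mean on that same array, -1.96, against 0.83, 1.66 and -0.51 at day 7 and 0.52 and 0.52 on the other day 14 arrays, and its part in these differences was not tested. Glutathione S-transferase genes have close paralogs, which a probe may also read. Gstm1 had levels of 5.15, 5.24 and 4.98 at day 7 and 4.76, 4.56 and 3.58 at day 14. Ugdh, which makes the UDP-glucuronic acid used for glucuronidation, had levels of 1.88, 2.30 and 1.54 at day 7 and 1.33, 1.03 and 0.44 at day 14 and a difference of -0.98 ± 0.45 (limma adjusted p 0.655). Gclc, the catalytic subunit of the rate-limiting enzyme of glutathione synthesis, had 3.49, 3.87 and 3.34 at day 7 and 3.14, 3.17 and 3.21 at day 14. Srxn1, which restores oxidised peroxiredoxins, had 3.80, 4.23 and 3.57 at day 7 and 3.49, 3.36 and 2.83 at day 14. Slc7a11, the cystine importer that feeds glutathione synthesis, had -1.43, -0.40 and 2.48 at day 7 and -2.22, -8.78 and -2.13 at day 14 and was well above background on 2 of 3 day 14 arrays (difference -4.59 ± 2.43). The lack of overlap fixes the sign of these 7 genes on every slide. Within slide 4 they differed by -0.89 for Gsta1, -0.94 for Gstm3, -0.39 for Gstm1, -0.56 for Ugdh, -0.35 for Gclc, -0.31 for Srxn1 and -0.79 for Slc7a11. Gsr, glutathione reductase, was lower on each slide but its groups overlapped, at 3.29, 4.74 and 4.96 at day 7 and 3.06, 3.30 and 3.30 at day 14. Without the day 7 arrays of slides 6 and 7 Gsr differed by -0.074.

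The 3 genes on the higher side were both metallothioneins and 1 transporter. Mt1 had levels of 0.85, 1.10 and 1.38 at day 7 and 2.52, 2.53 and 1.75 at day 14, a difference of 1.16 ± 0.42 (limma adjusted p 0.604). Mt2 had levels of 4.40, 4.73 and 4.24 at day 7 and 4.94, 5.21 and 5.04 at day 14 and a difference of 0.60 ± 0.35 (limma adjusted p 0.743). Abcc4, an exporter of bile acids and conjugates in the basolateral membrane, had 1.07, 0.47 and 0.81 at day 7 and 2.41, 1.80 and 1.54 at day 14 and a difference of 1.14 ± 0.53 (limma adjusted p 0.656). Akr1b8, an aldo-keto reductase, was higher within each slide, by 1.34, 2.27 and 1.08. Nqo1, a quinone reductase often used to read NRF2 activity, overlapped, at 3.22, 2.38 and 0.74 at day 7 and 3.07, 3.33 and 4.27 at day 14: its differences were -0.15, 0.95 and 3.53. Members of the one list thus lay in opposite directions between the same arrays, and the list median kept its sign in all 20 alternative settings (-0.43 to -0.20). Without the day 7 arrays of slides 6 and 7 the median was -0.32, Gsta1 differed by -1.93 and Mt1 by 1.41.

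In chow-fed animals and at day 3 these genes had other levels. Gsta1 was at -1.10 and -0.36 on the 2 day 0 arrays (chow-fed mice, all non-parenchymal cells, unsorted) and at 3.80, 0.72 and 3.58 on the 3 YFP-negative day 3 arrays, so its 3 day 7 levels were the highest of the YFP-negative series. Mt1 was at 0.48 and 0.80 on the day 0 arrays and at 1.32, 1.55 and 1.29 at day 3, and its 3 day 14 levels were above all of these.

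**Figure D3:**
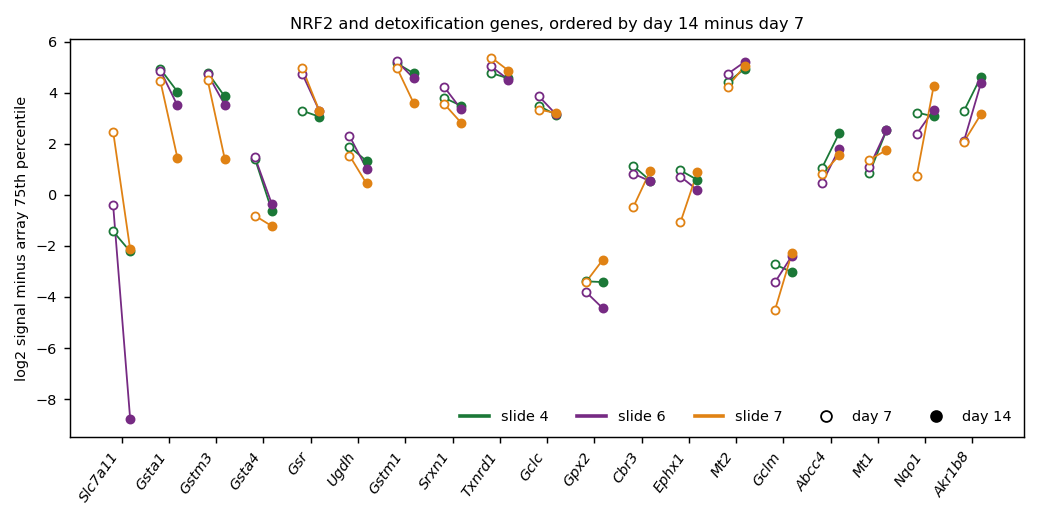
Level of each of the 19 NRF2 and detoxification genes (y axis, log2 signal minus the array's 75th percentile) on the 6 YFP-negative arrays, ordered by the difference between day 14 and day 7, with open circles for day 7, filled circles for day 14 and lines joining the 2 arrays of a slide (colour). Gsta1, Gstm3, Gstm1 and Ugdh sit lower at day 14 on all 3 slides, and Mt1, Mt2 and Abcc4 sit higher on all 3. Their lack of overlap fixes these signs.

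Heme and iron genes, the pathway that DDC disturbs, had a median of 0.16 over 19 genes, 12 above and 7 below 0 (0.34 without the day 7 arrays of slides 6 and 7). At day 14, 2 of the 19 lay wholly above and 1 wholly below, beside 6.33% and 7% of all genes. Both genes wholly above at day 14 were ABC transporters that carry porphyrins: Abcg2 had levels of 1.65, 0.72 and -0.48 at day 7 and 1.79, 2.21 and 2.15 at day 14 (difference 1.42 ± 0.54, limma adjusted p 0.612) and Abcb6 had -1.27, -1.06 and -3.16 at day 7 and -0.81, -0.37 and -0.71 at day 14 (difference 1.20 ± 0.64). Fth1, the heavy chain of the iron store ferritin, lay below on all 3 day 14 arrays, at 5.87, 6.02 and 6.14 at day 7 and 5.64, 5.50 and 5.57 at day 14. Hmox1, which breaks down heme and is abundant in macrophages, was highest on those same 2 day 7 arrays, at 0.91, 4.10 and 4.41 at day 7 and 2.53, 2.40 and 2.42 at day 14.

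Among genes of bile acid transport 10 of 12 had a difference below 0 (median -0.39, and -0.26 without the day 7 arrays of slides 6 and 7). At day 14, 2 of the 12 lay wholly below, beside 7% of all genes. Abcb11, the bile salt export pump, had levels of -0.67, 1.18 and -2.28 at day 7 and -2.73, -4.26 and -6.67 at day 14, a difference of -3.96 ± 1.30 (limma adjusted p 0.588). Abcc2, the canalicular exporter of conjugated bilirubin, had -1.58, -1.22 and -1.90 at day 7 and -2.34, -3.17 and -3.18 at day 14 and a difference of -1.33 ± 0.61 (limma adjusted p 0.655). Both are hepatocyte genes, and they lay lower beside the hepatocyte list described above. Cholesterol and lipid synthesis genes were below 0 for 11 of 14 (median -0.37, and -0.12 without the day 7 arrays of slides 6 and 7). Of the 14 genes 0 were free of overlap, beside 6.33% of all genes wholly above and 7% wholly below at day 14.

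The Notch list, a pathway in which a ligand on a neighbouring cell leads to cleavage of the receptor, whose inner part then switches on HES genes, had a median of 0.48, with 10 of 15 genes above 0, and -0.38 without the day 7 arrays of slides 6 and 7. The receptor Notch1 differed by -0.13, 0.82 and 0.36 on the 3 slides. Hes1, a repressor and direct Notch target (probe at chr16:30065983-30066278 of mm9), had levels of -0.78, -1.73 and -2.59 at day 7 and 0.57, 0.11 and 0.54 at day 14, a difference of 2.10 ± 0.66 (limma adjusted p 0.588). The differences within slides were 1.35, 1.84 and 3.12. Hes1 was named for its lack of overlap, as were Nrarp and Rbpj, which fixes their signs on every slide. Of the 15 genes 2 lay wholly above and 1 wholly below at day 14, beside 6.33% and 7% of all genes. Nrarp, another Notch target that damps the pathway, had 1.41, -0.43 and -0.022 at day 7 and 1.60, 1.58 and 1.61 at day 14. Rbpj, the DNA-binding partner of the receptors, lay the other way, at -1.18, -0.75 and 0.14 at day 7 and -2.09, -1.26 and -1.55 at day 14. Of the TGF-beta and PDGF list, Ccn2, the connective tissue growth factor, had levels of 3.60, 2.59 and 1.04 at day 7 and 4.17, 4.12 and 4.74 at day 14, a difference of 1.93 ± 0.66 (limma adjusted p 0.593). The inhibitor Smad6 had -1.55, -3.06 and -2.30 at day 7 and -1.15, -0.50 and -1.46 at day 14. The list as a whole was near the background, with 12 of 21 genes above 0 and a median of 0.24 (-0.015 without those 2 arrays).

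Wnt genes divided likewise, with 12 of 21 above 0 and a median of 0.21 (-0.12 without the day 7 arrays of slides 6 and 7). Dkk3, a secreted member of the Dickkopf family, had levels of 1.54, -0.37 and 0.025 at day 7 and 3.25, 3.15 and 2.20 at day 14 and a difference of 2.47 ± 1.16 (limma adjusted p 0.657). Nkd1, a feedback inhibitor of the pathway, had -0.55, -2.69 and -1.42 at day 7 and 0.34, 0.04 and -0.26 at day 14, and Axin2, another feedback target, differed by -0.17, 2.02 and 1.72 on the 3 slides. Lef1, a transcription factor of the pathway that T cells also express, had -3.47, -0.49 and -0.84 at day 7 and -4.01, -4.91 and -4.23 at day 14, highest on the same 2 day 7 arrays as the leukocyte genes. In the Hedgehog list, 8 of 12 genes were above 0 (median 0.56, and -0.30 without those 2 arrays).

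Of 29 interferon-induced genes, 21 had a difference below 0 (median -0.17, and -0.026 without the day 7 arrays of slides 6 and 7). At day 14, 2 of the 29 lay wholly below, beside 7% of all genes. Oasl2, of the oligoadenylate synthetase family, had levels of 0.83, 1.63 and 0.91 at day 7 and 0.52, 0.27 and 0.68 at day 14, and its relative Oasl1 had -1.69, -0.44 and -1.72 at day 7 and -1.97, -3.08 and -2.55 at day 14. Isg15, a ubiquitin-like modifier, differed by -0.30 ± 0.66. The element GAAANNGAAA, a core of the interferon-stimulated response element, was in the promoter window of 8 of the 20 genes of the list that have one, against 2.98% of all windows. Of the genes named here, Isg15 held 2 matches, and Oasl2 and Oasl1 held 0. Genes of the interferon-gamma response and antigen presentation were even, with 10 above and 10 below 0 (median -0.025, and 0.17 without those 2 arrays). Socs1, a feedback inhibitor of cytokine receptors, had -1.16, -3.18 and -2.19 at day 7 and -0.58, -0.77 and -0.91 at day 14 (difference 1.42 ± 0.67, limma adjusted p 0.656). Cxcl9, a T cell chemokine, had -1.54, -1.34 and -1.54 at day 7 and 0.19, -0.61 and -0.80 at day 14. The GTPase Irgm1 had 1.36, 1.12 and 0.92 at day 7 and 1.64, 1.50 and 2.84 at day 14. These 3 of the 20 genes lay wholly above at day 14, beside 6.33% of all genes. H2-Eb1, a chain of the class II antigen-presenting molecule, lay furthest below 0 (difference -4.25) and differed by -0.88, -8.11 and -3.77 on the 3 slides.

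The inflammatory list had 14 of 21 genes below 0 (median -0.52, and -0.15 without the day 7 arrays of slides 6 and 7). Saa3, an acute-phase serum amyloid protein, had levels of -1.23, 0.73 and 0.42 at day 7 and -3.31, -2.03 and -5.04 at day 14. Ptgs2, the inducible cyclooxygenase, had -2.47, -2.03 and 0.93 at day 7 and -3.72, -4.97 and -4.04 at day 14. The differences were -3.43 ± 2.08 and -3.06 ± 1.26. Both were named for their lack of overlap, so their lower level on every slide follows from the rule. Csf1, the growth factor of macrophages, lay the other way at 2.56, 1.61 and 2.56 at day 7 and 3.17, 2.70 and 3.03 at day 14, as did Icam1, a leukocyte adhesion molecule, with a difference of 1.03 ± 0.36 (limma adjusted p 0.604). The chemokine Ccl2 overlapped, with differences of -1.14, 0.46 and -0.89. Among proteases, Mmp12, the macrophage elastase, had -3.77, 0.52 and 0.058 at day 7 and -4.54, -7.87 and -4.97 at day 14, highest on the same 2 day 7 arrays as the leukocyte genes, and Mmp19 had -3.96, -3.24 and -4.15 at day 7 and -5.49, -5.51 and -5.30 at day 14. Mmp10 was well above background on 1 of 3 day 7 arrays and 0 of 3 day 14 arrays, so no size of its difference is given (limma adjusted p 0.622). The matrix turnover list as a whole had 12 of 18 genes above 0 (median 0.41, and -0.11 without those 2 arrays).

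Cell cycle genes had a median of -0.15. Of the 24 genes 0 were free of overlap, beside 6.33% of all genes wholly above and 7% wholly below at day 14. Mki67, a marker of dividing cells, differed by -0.84, 0.60 and -0.71 on the 3 slides. Ribosomal protein genes had a median of 0.09, immediate early genes 0.21, endoplasmic reticulum stress genes -0.37 and hypoxia and glycolysis genes -0.29; without the day 7 arrays of slides 6 and 7 these medians were -0.23 for cell cycle, 0.24 for ribosomal protein, -0.090 for immediate early, 0.055 for endoplasmic reticulum stress and 0.31 for hypoxia and glycolysis genes. Within them, Trib3, a pseudokinase induced by amino acid and endoplasmic reticulum stress, had levels of -3.53, -3.03 and -5.07 at day 7 and -1.47, -1.36 and -1.98 at day 14, a difference of 2.27 ± 0.60 (limma adjusted p 0.588), but the 1 other probe of the gene had the opposite sign. Herpud1, a protein of endoplasmic reticulum-associated degradation, had 2.92, 2.93 and 3.18 at day 7 and 3.29, 3.71 and 3.20 at day 14. Adm, the vasodilator peptide adrenomedullin, had 2.16, 0.69 and 0.72 at day 7 and 3.49, 3.19 and 2.33 at day 14 and a difference of 1.81 ± 0.80 (limma adjusted p 0.637). Pdk1, a kinase that restrains pyruvate dehydrogenase, had 0.76, 0.51 and -0.055 at day 7 and 1.46, 1.33 and 0.84 at day 14. Ldha, lactate dehydrogenase, lay wholly below at day 14, with a difference of -0.49 ± 0.27. Klf2, a shear-responsive transcription factor of endothelium, differed by 0.42 ± 0.41, with 1 other probe opposite in sign.

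Beyond the lists, 24 genes were taken by rule from those whose groups did not overlap, by the smallest of their 3 within-slide differences. The lack of overlap, the shared sign and a large difference on every slide are therefore the rule and no finding. Among the 12 higher at day 14, Dpf3, a histone-reading subunit of the BAF chromatin remodelling complex (probe at chr12:84370514-84370573 of mm9), had levels of -5.58, -6.36 and -5.86 at day 7 and -1.56, -2.11 and -2.82 at day 14, a difference of 3.77 ± 0.69 and the smallest adjusted p of this set, 0.297 in limma. Ctsj, a cathepsin known from the placenta (chr13:61105456-61105824), had levels of -3.39, -6.05 and -6.96 at day 7 and 2.24, 0.94 and -3.30 at day 14, the widest difference of the higher set (5.42 ± 1.99, limma adjusted p 0.604). Slc10a6, a carrier of sulfated steroids, had -2.06, -2.40 and -6.74 at day 7 and 0.85, 1.12 and -0.11 at day 14. Nova1, a neuronal splicing factor, and Nudt11, a diphosphoinositol polyphosphate phosphatase, were not well above background on any day 7 array, and day 14 was at least 3.59-fold higher for Nova1 and at least 5.29-fold higher for Nudt11. These bounds set the day 14 mean against, on each day 7 array, the lowest signal among probes well above background or the probe's own signal where that is higher, and Nova1 had a limma adjusted p of 0.523 and Nudt11 0.635. The retinal transporter Abca4 was well above background on 1 of 3 day 7 arrays, as was Scg5, a secretory granule protein, with differences of 3.83 ± 1.16 and 3.22 ± 1.50. Atp6v0a4 (a proton pump subunit, 4.25), Cux2 (a homeodomain factor, 3.73), Pcdhb8 (a protocadherin, 3.09), Zfp30 (a zinc finger protein, 3.89) and Rnase10 (3.57) completed the higher set. Of these, Atp6v0a4, Cux2 and Zfp30 were each well above background on 2 of 3 day 7 arrays.

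Of the 12 lower at day 14, 5 are genes of leukocytes. Fpr1, the formyl peptide receptor of neutrophils, had levels of -1.70, 0.28 and 1.64 at day 7 and -5.55, -5.49 and -3.63 at day 14, a difference of -4.96 ± 1.31 (limma adjusted p 0.588). Cd2, an adhesion molecule of T and NK cells, had -3.46, -1.84 and -1.59 at day 7 and -6.93, -7.38 and -5.72 at day 14 and a difference of -4.38 ± 1.26. Klrb1b, an NK cell receptor, had -5.83 ± 1.84, Elane, neutrophil elastase, had -5.27 ± 1.76, and the immunoglobulin segment Ighv6-6 had -4.83 ± 2.14. Within slide 4 the differences were -3.85 for Fpr1, -3.47 for Cd2, -3.88 for Klrb1b, -5.14 for Elane and -3.36 for Ighv6-6. A large difference on slide 4 follows from the rule. The slide 4 medians of the macrophage, lymphoid and neutrophil lists were 0.81, -0.07 and -0.07. Dgkg, a diacylglycerol kinase (chr16:22468611-22468670), had levels of -5.03, -4.48 and -2.67 at day 7 and -8.43, -8.59 and -7.20 at day 14, a difference of -4.01 ± 0.74 and an adjusted p of 0.297 in limma. Scrg1 had -4.23, -3.84 and -3.35 at day 7 and -7.50, -7.45 and -7.63 at day 14, the tightest day 14 group of the 24, and the potassium channel Kcna2 had -2.79, -1.56 and -1.41 at day 7 and -6.39, -7.44 and -6.17 at day 14. Mup3, a major urinary protein, and Ugt2b1, a glucuronosyltransferase, both of hepatocytes, differed by -5.66 ± 2.07 and -5.20 ± 2.19; the Mup genes are near-identical copies, so the probe may read others of them. Klrb1b, Elane, Dgkg, Xlr4a and Rpl39l were each well above background on 1 of 3 day 14 arrays, and Ugt2b1 and Ighv6-6 on 2 of 3. Xlr4a (-5.18) and Rpl39l (-4.02) completed the lower set.

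**Figure D4:**
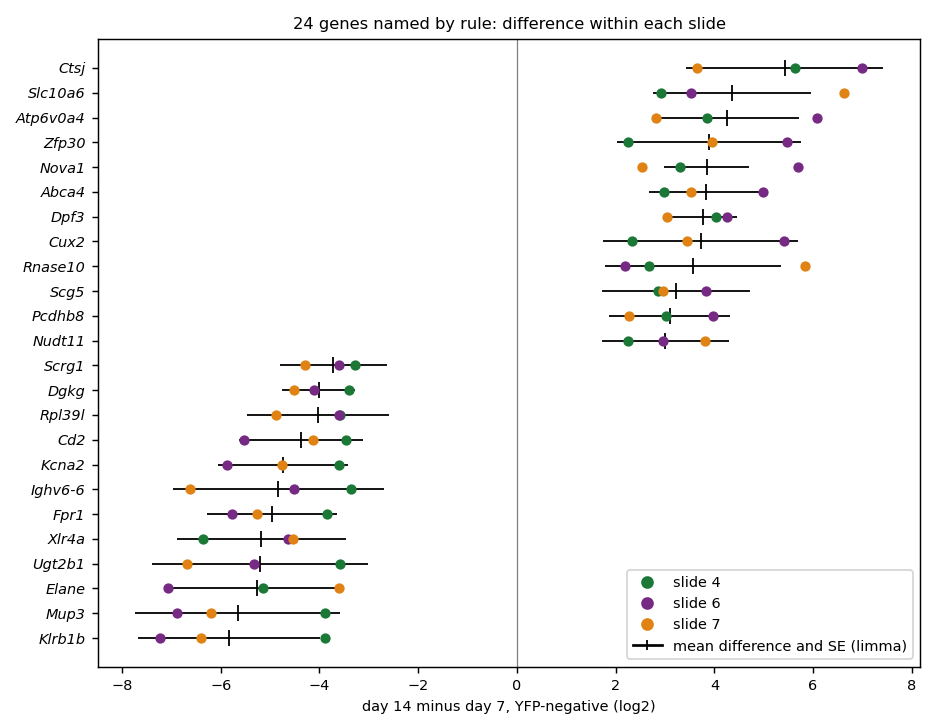
Difference between day 14 and day 7 within each slide (points, coloured by slide, x axis in log2) for the 24 genes named by rule, with a bar for the mean difference and a line for its standard error from limma. The differences share a sign and are large on every slide because the rule asked for it. Dpf3 and Dgkg have the smallest standard errors, 0.69 and 0.74.

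The same interval in YFP-positive cells rests on 3 day 7 and 2 day 14 arrays and shares no array with the YFP-negative comparison. The day 7 arrays lay on slides 2, 4 and 7 and the day 14 arrays on slides 1 and 2, so the slides differed between these days. There 9 genes passed (percent called 0.0338), and 54.7% of genes had a difference above 0 and 45.3% below. The test of the difference between both intervals called 0 genes (percent called 0, smallest adjusted p 0.059 in limma), while 936 genes (3.51%) had an unadjusted p under 0.05. The leukocyte lists were below 0 in both fractions: the macrophage median was -2.62 in YFP-negative and -3.22 in YFP-positive cells, the neutrophil median was -2.30 and -4.76, and the lymphoid median was -2.96 and -1.48, with 5 of 19 lymphoid genes above 0 in YFP-positive cells. The YFP-positive day 7 arrays were uneven too: the macrophage list had means of -0.16, 3.39 and 3.35 on them and -1.83 and -0.32 at day 14. The neutrophil list had -4.92, 1.08 and 1.94 against -5.21 and -4.20. Thus 1 of the 3 day 7 arrays lay near the day 14 level. The matrix list had a median of 0.89 in YFP-negative and -1.09 in YFP-positive cells, with 15 of 21 genes below 0 in the latter. Col1a1 differed by 0.96 in YFP-negative and -5.66 in YFP-positive cells, Loxl1 by 2.22 and -1.53. Without the YFP-negative day 7 arrays of slides 6 and 7 the YFP-negative values were -0.46 and 0.16. The YFP-positive day 14 levels of Col1a1, -7.66 and -6.10, lay near the lowest signals well above background on those arrays, -7.86 and -7.44. Unadjusted interaction p-values from limma's fit were 0.0184 for Col1a1 and 0.00692 for Loxl1, and neither passed after adjustment (both adjusted p 1).

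Other groups had opposite medians in the fractions, with no test passed. The detoxification list had -0.39 in YFP-negative and 0.26 in YFP-positive cells, where Gsta1 differed by 0.039 and Gstm3 by -0.28. The metallothioneins lay above 0 in both, Mt1 by 0.69 and Mt2 by 0.87 in YFP-positive cells. Hes1 differed by 2.10 in YFP-negative and 2.20 in YFP-positive cells. The hepatocyte medians were -0.78 and 0.33, and those of bile acid transport -0.39 and 1.17. Abcb11 lay lower in both (-3.96 and -4.09), whereas Abcc2 differed by -1.33 and 1.82 (unadjusted interaction p 0.00336, adjusted p 1 in limma). Cd79a differed by -2.84 and 0.31 (unadjusted interaction p 0.00402, adjusted p 1 in limma).

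**Figure D5:**
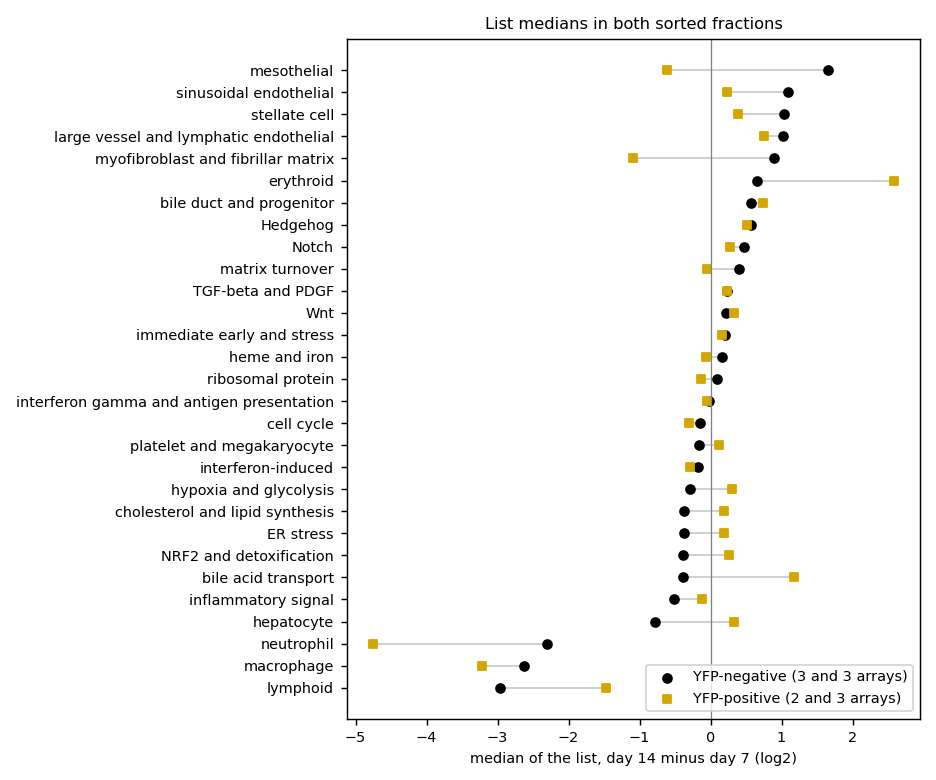
Median difference between day 14 and day 7 (x axis, log2) of each of the 29 gene lists (rows) in YFP-negative cells (black circles) and YFP-positive cells (yellow squares). The matrix list sits at 0.89 and -1.09, and the macrophage list at -2.62 and -3.22; no gene passed the test of the difference between fractions.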

How the data were processed

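RNA of sorted liver cells was amplified, labelled with Cy3 and hybridised to 1-colour Agilent arrays, per the labels' protocols. The deposited scanner files give the intensity of each spot, background-subtracted and detrended within the array by Feature Extraction 10.5.1.1 per the file headers (the submitters' processing notes name 9.53), with probe positions of mm9. The authors' deposited table gives signed fold changes against day 0, used only to compare signs.

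The log2 processed intensity minus each array's 75th percentile was taken for 41174 probes, control spots left out. Probes well above background on at least 2 of the 20 arrays were kept (39615), and the brightest probe stood for each of 26665 genes; 16250 gene names were matched by accession, 2388 by symbol and 859 by synonym to RefSeq, and 7168 kept the array's name. limma 3.58.1 (R 4.3.3) fitted 7 groups over all 20 arrays with no block, and p-values were adjusted over all genes by Benjamini-Hochberg; the threshold was 0.05. An exact permutation test of 3 against 3 arrays cannot go below p = 0.1. The script was tested on simulated data. The number of arrays limits the precision: the median SE was 0.736.

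The gene lists (29 lists, 496 measured genes) and the members were chosen with earlier results of these data known. Genes were named by rule: those past the threshold; with none, 12 higher and 12 lower genes whose groups did not overlap, by the smallest within-slide difference; and, per list, up to 3 without overlap and the first measured member, left out where a list is given by counts. Mt1, Mt2, Gstm1, Ugdh, Gclc, Srxn1, Abcc4, Akr1b8, Gsr, Cygb, Sparc, Icam1, Loxl1, Tie1, Hmox1, Cyp3a11, Ttr, Gfap and H2-Eb1 were added after their values were seen. Promoter windows are RefSeq's, in GRCm38.p6. Foxl1 itself was not analysed here. Alternatives covered background correction, scaling, filters, probe choice, blocks, weights and left-out arrays. Some genes that the rule names are not reported here.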

Additional observations from a re-analysis of the deposited data

How the results depend on the processing

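The count of genes past the threshold was 0 in the main setting and in every alternative other than these: it was 1 with no filter on dim probes, 0 to 49 when 1 array was left out (49 without day 7 replicate 1, the array of slide 4; 2 without day 7 replicate 4; 1 without day 14 replicate 2), and 8 without the day 7 arrays on slides 6 and 7. That last setting was chosen after seeing the data, and its lone day 7 array is assumed to vary like the other groups. Without day 7 replicate 1, Dgkg had a limma adjusted p of 0.0475. The unadjusted counts ran from 122 to 1350 genes higher and from 507 to 1952 lower. The count for the difference between fractions was 2 with slide as a fixed block, 2 with the replicate block and 0 to 5 when 1 array was left out (5 without YFP-positive day 14 replicate 2, 3 without replicate 1, and 1 without YFP-negative day 7 replicate 4 or day 14 replicate 2). The cause was not tested.

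Replicate numbers 1 and 3 occur on both days, and the deviations of equal numbers correlated at -0.00231 and -0.117, so the numbers were not taken to pair the samples. With the replicate block the count was 0. Arrays of the same slide correlated at -0.00231, 0.175 and 0.168, and with slide as a fixed or random block the count was 0.

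Of the 106 genes named, 93 kept their sign in all alternatives and 13 did not. All 106 had the same sign in the authors' deposited table. That table belongs to the same series and was read at the same probes, so the shared sign is no independent support. Without the day 7 arrays on slides 6 and 7 the sign turned for Krt19 (-0.080), Col1a1 (-0.46), Stab2 (-0.19), Vwf (-0.83), Adgre1 (1.13), Ptprc (0.16), S100a8 (1.12), Mki67 (0.043), Notch1 (-0.18), Hmox1 (1.54) and Gfap (0.22). Col1a1 turned to -0.33 with the replicate block. Gfap was 0.19 under quantile normalization, 0.037 under median centring and 0.75 as the mean of its probes. With 1 array left out, Vwf ran from -0.11 to 1.37, Alas2 from -1.90 to 2.39, Ccl2 from -0.98 to 0.12, Mki67 from -1.06 to 0.12 and Gfap from -0.44 to 0.28; the arrays that turned the sign were day 7 replicate 4 (Vwf, Ccl2, Gfap) and replicate 1 (Alas2), and day 14 replicate 1 (Alas2, Mki67), replicate 2 (Alas2, Gfap) and replicate 3 (Vwf). The causes were not tested. The macrophage and neutrophil medians turned in 1 of 20 alternatives (to 0.37 and 0.67), and those of the stellate (0.22 to 1.36), sinusoidal (0.13 to 1.71), hepatocyte (-1.31 to -0.03) and lymphoid lists (-3.89 to -0.70) kept their sign in all 20. Probes not well above background on a whole group give only bounds, and for Mmp10 no size is given.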
